A study of Mus musculus with 6 samples.

Results

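The TGF-beta, BMP and activin pathway was followed in melanocyte stem cells through 44 member genes, chosen by name: ligands, receptors, extracellular antagonists and binding proteins, Smad proteins, brakes inside the cell or at its membrane, and target genes. All 44 were found among the 21366 named genes that the arrays gave a value for, each through the RefSeq accession of its probes, and each is represented by its brightest probe over all arrays. Of the 44, 41 exceeded background clearly on 3 or more arrays and were tested, among 18368 genes tested in all.

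Skin of male mice was dissociated and green fluorescent cells of low side scatter, GFP(+)/SSC(low), were collected, the gate that the labels equate with melanocyte stem cells. There were 2 genotypes, with 3 samples each and 1 array per sample. The control group was WT, and the other group was K14-SCF Tg, whose transgene makes basal keratinocytes, a cell type other than the sorted one, produce SCF (stem cell factor, which activates the receptor KIT) from the keratin 14 promoter. The labels name no treatment and no age, and do not say which transgene makes the cells green. They number the replicates without saying that each came from its own animal, so the p-values reflect no more than the spread of these samples, possibly a technical one, and the number of arrays limits the precision. A level is the log2 signal of a probe relative to the 75th percentile of its array, and fold changes are K14-SCF Tg minus WT on that scale. In sorted pools, fewer cells of a type and less RNA per cell cannot be told apart.

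Ligands of this family bind a pair of type II and type I receptor kinases at the cell surface. TGF-beta and activin signals pass mainly through SMAD2 and SMAD3, BMP signals through SMAD1, SMAD5 and SMAD9, and both use SMAD4 as the shared partner that carries the complex to DNA. SMAD6 and SMAD7 brake the pathway from within, and follistatin, noggin, chordin and gremlin trap ligands outside the cell. In the hair follicle, TGF-beta from the niche is known for holding melanocyte stem cells in quiescence, and BMP signalling for restraining follicle stem cells between hair cycles.

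The share of the 55681 non-control probes that was well above background lay between 78.4% (WT replicate 3) and 87.1% (K14-SCF Tg replicate 2), and 0 probes were saturated on any array. Of 14 melanocyte markers, 13, among them Dct, Tyr, Mlana, Sox10 and Kit, were well above background on all 6 arrays, and Oca2 was so on 0 arrays. Pairs of arrays within WT correlated at a mean of 0.911, within K14-SCF Tg at 0.928 and between genotypes at 0.918, over tested probes. WT replicate 1 had its own slide. The other 5 arrays shared a slide, so a comparison within that slide is the comparison without WT replicate 1. WT replicate 3 and K14-SCF Tg replicate 3 were in row 2 of their slide and the other arrays in row 1, so slide row and replicate number 3 cannot be told apart.

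The follistatin gene Fst was seen on the WT arrays alone, the target gene Ccn2 had a higher signal on every K14-SCF Tg array than on any WT array, and Smad3 had a lower signal on every K14-SCF Tg array. No member passed the test: by limma, with p-values adjusted by the Benjamini-Hochberg method across every tested probe, 0 of 41 members were called higher and 0 lower, with adjusted p-values between 0.501 (Fst) and 1.00. The same threshold called 1 gene higher of the 18368, which is 0.00544%, and 0 lower, 0%. At an unadjusted limma p under 0.05, 1 member was higher (Ccn2, against 2.85% of all genes) and 1 lower (Fst, against 2.56%), each 2.44% of members and near the share of all genes. Fst entered the test through its WT arrays alone, so its place in these counts says nothing of a size of change. The genotypes did not overlap for 1 member with the higher signal in K14-SCF Tg (Ccn2, 2.44% of members, against 5.13% of all genes). For 2 members, Fst and Smad3, the K14-SCF Tg signal was lower without overlap (4.88%, against 5.41% of all genes). Neither member share was above that of all genes. The mean differed by 1 or more on the log2 scale for 2 members upward (Ccn2 and Ltbp2, 4.88%, against 6.23% of all genes). It did so for 3 downward (Fst, Acvr1b and Tgfbi, 7.32%, against 5.04% of all genes). The median log2 fold change was -0.11 over the 41 members, with 15 positive and 26 negative, and -0.01 over all tested genes, with 8929 positive and 9439 negative.

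**Figure D1:**
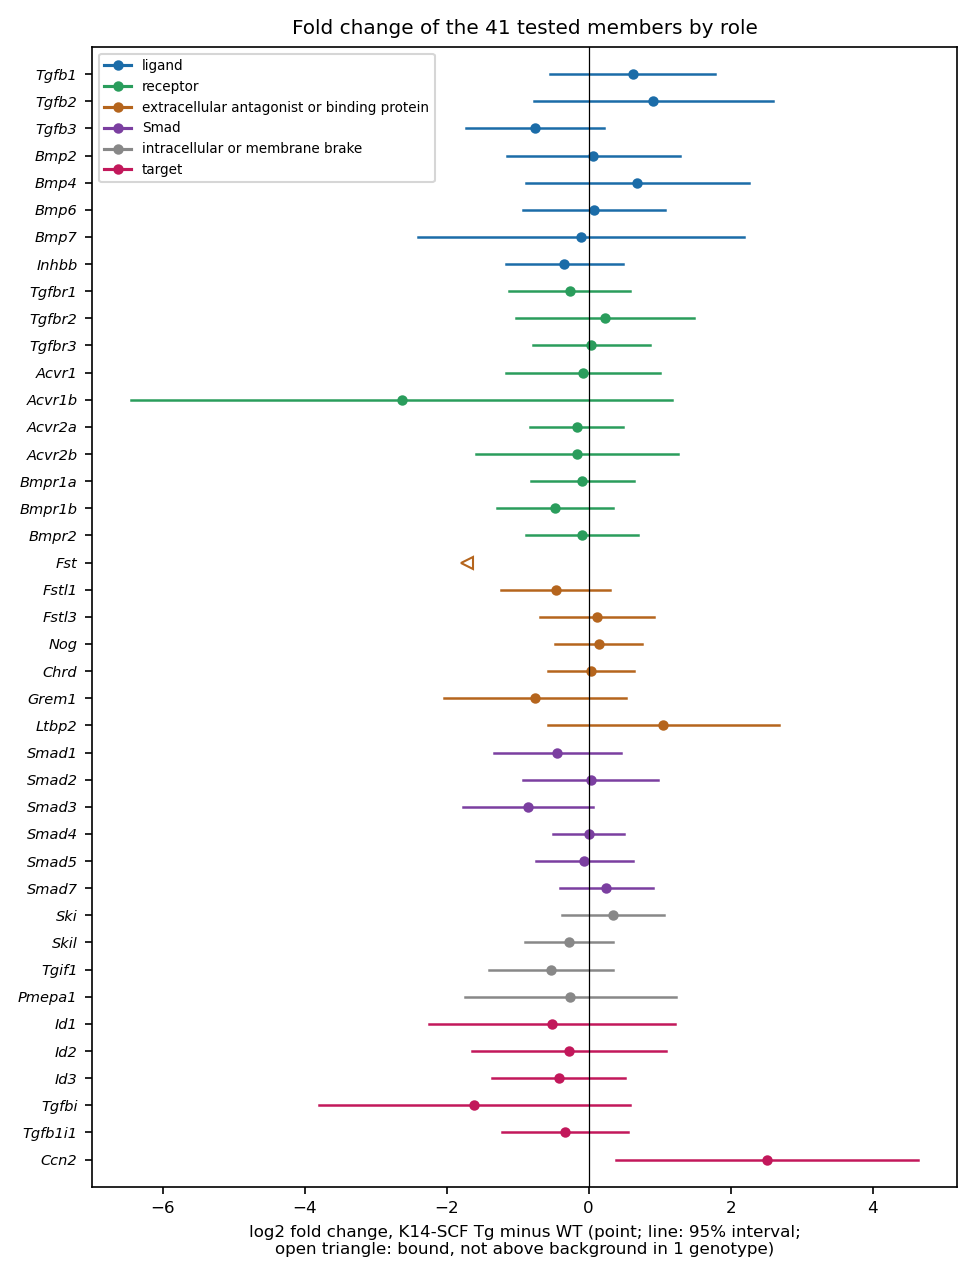
Log2 fold changes of the 41 tested members (horizontal axis, K14-SCF Tg minus WT; vertical axis, genes ordered and coloured by role), with the point for the estimate and the line for its 95% interval from limma. The open triangle is the bound for Fst, at least 3.27-fold lower, since its K14-SCF Tg signal was not well above background. The interval of Ccn2 lies wholly above 0, and those of the other 39 members with an interval include 0.

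Promoters were examined for members whose mean was lower in K14-SCF Tg and which are described array by array below, where the RefSeq table (assembly GRCm38.p6) lists them. Member promoters on a single chromosome were left out of the search. Outside that chromosome, the table lists 29 of the 44 members. Each sequence runs from 250 bases before to 50 bases after the annotated start, 5′ to 3′ on the gene's strand, with capitals marking the core CAGAC, which SMAD3 and SMAD4 bind, and the GC-rich Smad core GGCGC, both searched on both strands. The palindrome GGCGCC counts once on each strand, and those matches overlap.
Acvr1b, chr15:101173822-101174121, plus strand: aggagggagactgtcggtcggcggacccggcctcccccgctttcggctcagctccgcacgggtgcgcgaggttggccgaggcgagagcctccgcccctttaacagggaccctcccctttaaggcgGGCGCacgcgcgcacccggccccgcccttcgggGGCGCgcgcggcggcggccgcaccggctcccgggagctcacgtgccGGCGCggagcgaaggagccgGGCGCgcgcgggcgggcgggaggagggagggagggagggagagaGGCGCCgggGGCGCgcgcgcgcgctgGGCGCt
Smad3, chr9:63757945-63758244, minus strand: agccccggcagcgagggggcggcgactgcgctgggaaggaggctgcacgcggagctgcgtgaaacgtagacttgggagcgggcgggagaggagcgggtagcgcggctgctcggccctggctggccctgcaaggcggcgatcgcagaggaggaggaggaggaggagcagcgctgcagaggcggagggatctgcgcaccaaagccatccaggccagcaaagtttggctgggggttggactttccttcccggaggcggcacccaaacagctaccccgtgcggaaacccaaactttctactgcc
Smad6, chr9:64022010-64022309, minus strand: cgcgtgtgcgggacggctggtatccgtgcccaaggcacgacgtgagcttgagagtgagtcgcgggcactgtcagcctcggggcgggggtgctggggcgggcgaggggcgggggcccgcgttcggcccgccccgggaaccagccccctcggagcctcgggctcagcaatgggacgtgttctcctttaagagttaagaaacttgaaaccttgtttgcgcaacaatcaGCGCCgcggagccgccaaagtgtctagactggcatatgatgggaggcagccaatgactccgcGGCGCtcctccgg
Tgfbi, chr13:56609336-56609635, plus strand: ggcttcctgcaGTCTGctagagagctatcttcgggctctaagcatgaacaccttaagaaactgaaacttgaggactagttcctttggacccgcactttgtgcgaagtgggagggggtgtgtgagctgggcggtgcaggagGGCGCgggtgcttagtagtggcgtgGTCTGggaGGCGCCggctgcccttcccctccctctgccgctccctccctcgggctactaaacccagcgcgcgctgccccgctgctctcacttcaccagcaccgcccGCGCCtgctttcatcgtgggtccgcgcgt
The Tgfbi window holds CAGAC 2 times, at positions -239 and -85 from the start, and GGCGC 4 times. The Acvr1b window holds GGCGC 8 times and CAGAC 0 times, the Smad6 window holds GGCGC 2 times, and the Smad3 window holds neither (0 of each). Among all 32851 listed promoters of 300 bases, with no chromosome left out, 49.6% hold CAGAC and 36.9% hold GGCGC. Of the 29 listed members 15 hold CAGAC and 20 hold GGCGC in at least 1 promoter. The first are shares of promoters and the second counts of genes, some with several promoters, so they cannot be compared directly. These are matches of letters and were not tested against the expression values.

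Of the ligands, Tgfb1, Tgfb2 and Tgfb3 encode the TGF-beta isoforms. The signal of Tgfb3 was -0.34, 0.02 and -1.11 in WT replicates 1 to 3 and -1.66, -1.25 and -0.78 in K14-SCF Tg replicates 1 to 3. The genotypes overlapped through both arrays of row 2, where the order was turned, and the log2 fold change was -0.75 (SE 0.40, limma adjusted p = 0.942). Tgfb2 stood at -1.96, -1.83 and 0.25 in WT replicates 1 to 3, against -0.32, -0.85 and 0.36 in K14-SCF Tg, so the row 2 array was the highest of each genotype. Its log2 fold change was 0.91 (95% interval -0.77 to 2.59), and its other tested probe gave 1.34 (SE 1.31). The brightest probe gave 0.52 without WT replicate 1, 0.58 without WT replicate 2, 0.59 without K14-SCF Tg replicate 3 and 1.63 without WT replicate 3. Tgfb1 gave 0.62 (95% interval -0.54 to 1.78), with the genotypes overlapping, 0.37 without WT replicate 3, 0.24 without K14-SCF Tg replicate 3 and 1.01 without K14-SCF Tg replicate 1.

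The BMP ligand genes, which encode signals for the SMAD1 and SMAD5 branch, were well above background on all 6 arrays at their brightest probes, also where their signal was low. Bmp4 had a mean of -0.00 ± 0.76 in WT and 0.68 ± 1.03 in K14-SCF Tg (SD, n = 3 each). Its other probe was well above background on 0 WT arrays and 1 K14-SCF Tg array and was not tested. Bmp2 (log2 fold change 0.07), Bmp6 (0.08) and Bmp7 (-0.11) lay near 0 with intervals as wide as -2.40 to 2.19 for Bmp7. The signs of these 3 turned under other settings.

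The activin subunit genes differed in how they were seen. Inhbb, the beta B subunit, was well above background everywhere, at 1.65 ± 0.50 in WT and 1.31 ± 0.28 in K14-SCF Tg (SD, n = 3 each). Inhba, the beta A subunit, read -8.40, -6.97 and -8.00 in WT replicates 1 to 3, against -5.78, -7.33 and -6.21 in K14-SCF Tg. It was well above background on 0 WT arrays and 1 K14-SCF Tg array, so it was not tested and has no fold. Over the 8 ligands tested, 5 fold changes were positive and 3 negative, with a median of 0.07.

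Among the receptors, 2 of 10 fold changes were positive and 8 negative, with a median of -0.13, where all tested genes had 8929 positive and 9439 negative. Acvr1, Acvr2a, Acvr2b, Bmpr1a, Bmpr2, Tgfbr2 and Tgfbr3 changed sign in at least 1 other setting. Acvr1b, which encodes the activin type I receptor ALK4, had the most uneven signal of all members. It read 1.41, -0.79 and 0.14 in WT replicates 1 to 3, against -4.49, -3.76 and 1.11 in K14-SCF Tg. K14-SCF Tg replicates 1 and 2 were far below every WT array, while replicate 3 was above WT replicates 2 and 3. The log2 fold change was -2.63 (SE 1.55, limma adjusted p = 0.949), and within slide row 1 it was -4.44 (2 arrays against 2) while the pair in row 2 differed by 0.98 the other way. Without K14-SCF Tg replicate 3 the estimate was -4.38, without replicate 1 it was -1.58.

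The remaining receptors had log2 fold changes between -0.48 and 0.23. Tgfbr1, the TGF-beta type I receptor ALK5, gave -0.27 (95% interval -1.13 to 0.59) and the same sign at its other tested probe. Tgfbr2, the type II receptor, gave 0.23 (95% interval -1.02 to 1.48), and Tgfbr3, the co-receptor betaglycan, 0.04 (95% interval -0.79 to 0.87). The activin type II receptor genes Acvr2a and Acvr2b gave -0.17 and -0.16. For the BMP receptors, Bmpr1a gave -0.09 (95% interval -0.81 to 0.63), Bmpr2 -0.09 (95% interval -0.88 to 0.70) and Bmpr1b, which was well above background on 3 WT and 2 K14-SCF Tg arrays, -0.48. The other Bmpr1b probe was well above background on 0 WT and 0 K14-SCF Tg arrays and was not tested. The widest interval of these genes, that of Acvr2b, ran from -1.59 to 1.26. Acvr1, the type I receptor ALK2, gave -0.08 at its brightest probe and 0.37 (SE 0.73) at its other one.

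Outside the cell, follistatin binds activins and keeps them from their receptors. Fst read -4.66, -5.79 and -3.69 in WT replicates 1 to 3 and -8.48, -7.43 and -8.37 in K14-SCF Tg replicates 1 to 3. Every WT array was above every K14-SCF Tg array, and the probe was well above background on 3 of 3 WT arrays and on 0 of 3 K14-SCF Tg arrays. The signal was at least 3.27-fold lower in K14-SCF Tg, with the dim side set per array to no less than the faintest signal that any probe well above background had there. The measured means were -4.72 ± 1.05 in WT and -8.09 ± 0.58 in K14-SCF Tg (SD, n = 3 each), but the second is a signal not well above background and sets no size. The test over these signals did not pass (limma adjusted p = 0.501). With normexp (offset 50) and quantile normalization together the means differed by -0.97 on the log2 scale, and these steps were not tried apart. The pattern of 3 WT and 0 K14-SCF Tg arrays was shown by 11 of 18368 genes (0.0599%) and by 1 of 41 members (2.44%), Fst. The opposite pattern was shown by 54 genes (0.294%), with 0 members among them. The flags that make this pattern also let Fst into the test, so these shares are no support for a change. Both counts also depend on how many probes each array detected, which was lowest for WT replicate 3 (78.4%).

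Ltbp2, a matrix protein of the family of latent TGF-beta binding proteins, read -2.29, -2.40 and -3.01 in WT replicates 1 to 3, against -0.20, -1.57 and -2.76 in K14-SCF Tg. K14-SCF Tg replicate 3 lay among the WT arrays and the other K14-SCF Tg arrays above them. The log2 fold change was 1.05 (SE 0.66, limma adjusted p = 0.957), and 0.40 without K14-SCF Tg replicate 1. Gremlin (Grem1), a BMP antagonist, gave -0.75 (95% interval -2.04 to 0.53), with -3.69, -1.77 and -3.30 on the K14-SCF Tg arrays around a WT mean of -2.16 ± 0.08 (SD, n = 3). The follistatin relatives Fstl1 (-0.46) and Fstl3 (0.12) did not share the pattern of Fst, as both were well above background on all 6 arrays and overlapped between genotypes. The BMP antagonists noggin (Nog, 0.14, 95% interval -0.47 to 0.75) and chordin (Chrd, 0.03, 95% interval -0.57 to 0.63) had among the narrower intervals of all members.

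**Figure D2:**
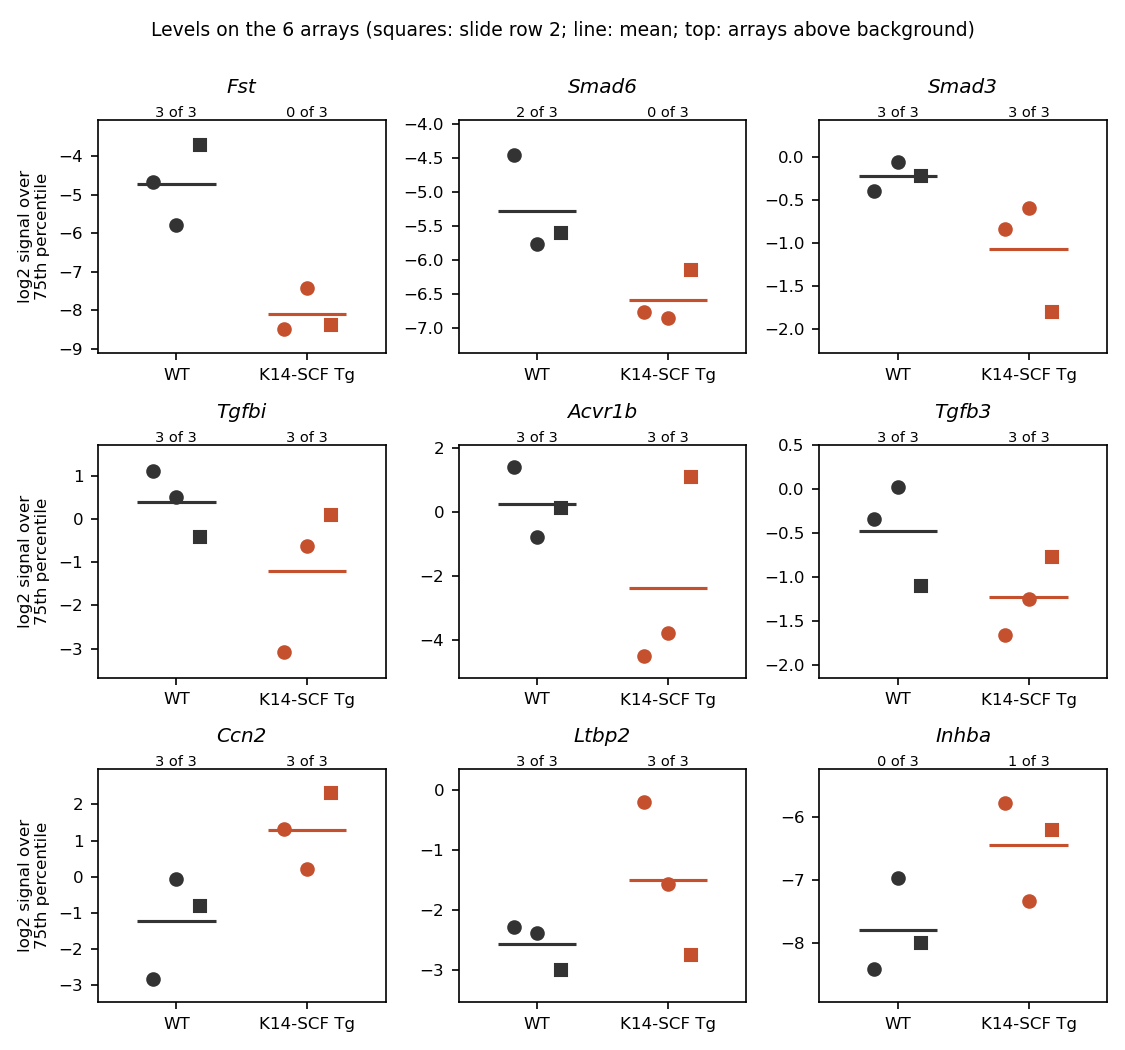
Signal of 9 members on each of the 6 arrays (vertical axes, log2 over the array's 75th percentile; horizontal axes, genotype); squares are the arrays in slide row 2, lines are means of 3 arrays, and the count above each genotype is the number of its arrays well above background. Fst, Smad3 and Smad6 are lower on every K14-SCF Tg array and Ccn2 higher, while K14-SCF Tg replicate 3 stands apart from replicates 1 and 2 for Acvr1b.

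Of the Smads, Smad3, the mediator of TGF-beta and activin signals, read -0.39, -0.05 and -0.22 in WT replicates 1 to 3, against -0.83, -0.59 and -1.80 in K14-SCF Tg. All 3 K14-SCF Tg arrays were below all WT arrays, by a margin that was small beside the gap between K14-SCF Tg replicate 3 and the others. The log2 fold change was -0.85 (SE 0.37, limma adjusted p = 0.918), and -0.49 without K14-SCF Tg replicate 3. The other Smad3 probe gave -0.36 (SE 0.54) with the genotypes overlapping. Smad4, the shared partner, had the steadiest signal of all tested members, 2.95 ± 0.07 in WT and 2.95 ± 0.11 in K14-SCF Tg (SD, n = 3 each), with a 95% interval of -0.50 to 0.50 for the log2 fold change. Its other probe gave 0.26. Smad2 gave 0.03 (95% interval -0.92 to 0.98), Smad1 -0.44 (95% interval -1.34 to 0.46), with -0.49 at its other probe, and Smad5 -0.06 (95% interval -0.74 to 0.62).

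The inhibitory Smads were at low signal. Smad6, which restrains BMP signalling, read -4.46, -5.77 and -5.61 in WT replicates 1 to 3, against -6.77, -6.86 and -6.14 in K14-SCF Tg, all 3 below the WT arrays. It was well above background on 2 WT arrays and 0 K14-SCF Tg arrays, and so was not tested. Against the same kind of floor as for Fst, and with all 3 WT arrays in the mean, its signal was 2.05-fold lower in K14-SCF Tg. That WT mean includes an array not well above background, so the fold is not a bound. Smad7, which restrains both branches, was well above background on all arrays and gave 0.25 (95% interval -0.41 to 0.91).

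Among the brakes, Ski and Skil encode repressors that bind Smad complexes, and gave 0.34 and -0.27 with overlapping genotypes. Tgif1, a homeodomain repressor, gave -0.52 (95% interval -1.40 to 0.35), and Pmepa1, a membrane protein that binds receptor Smads, -0.26. Bambi, a decoy receptor, was well above background on 1 array of each genotype and was not tested.

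The targets held the largest positive fold change of the 41 tested members, and 5 of the 6 target fold changes were negative, with a median of -0.38. Id1 and Id2 changed sign in at least 1 other setting. Ccn2, which encodes connective tissue growth factor and is induced by TGF-beta in many cells, read -2.82, -0.05 and -0.80 in WT replicates 1 to 3, against 1.32, 0.23 and 2.32 in K14-SCF Tg. The genotypes did not overlap, though WT replicate 2 and K14-SCF Tg replicate 2 lay close together. The log2 fold change was 2.51 (SE 0.86, 95% interval 0.39 to 4.63), with a limma p of 0.0275 and a limma adjusted p of 0.863. It was 1.72 within the shared slide, 2.21 within slide row 1 and 3.12 within row 2.

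Tgfbi, a secreted matrix protein named for its induction by TGF-beta, did not follow Ccn2. It read 1.12, 0.53 and -0.42 in WT replicates 1 to 3, against -3.07, -0.63 and 0.10 in K14-SCF Tg. K14-SCF Tg replicate 1 was far below the other arrays, and replicate 3 was above WT replicate 3. The log2 fold change was -1.61 (SE 0.89, limma adjusted p = 0.946), and -0.67 without K14-SCF Tg replicate 1, and the row 2 pair differed by 0.52 the other way.

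The Id genes encode inhibitors of helix-loop-helix transcription factors and are classical BMP targets. Id1, Id2 and Id3 gave -0.51 (95% interval -2.24 to 1.22), -0.27 (95% interval -1.64 to 1.09) and -0.42 (95% interval -1.36 to 0.52). For each of the 3, the row 2 array was the lowest of its genotype. Tgfb1i1, a focal adhesion protein induced by TGF-beta, gave -0.33 and, at its other probe, -0.94, and there the row 2 array was the highest of each genotype at the brightest probe.

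**Figure D3:**
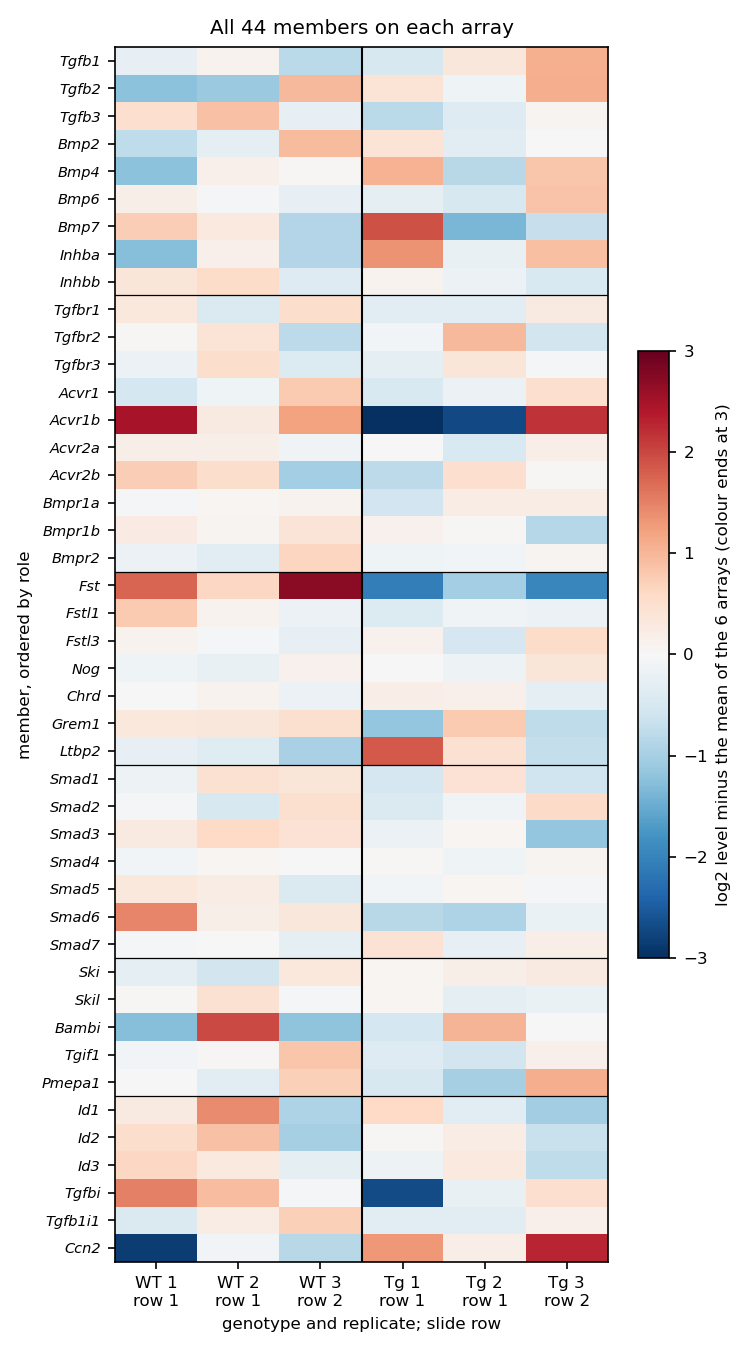
All 44 members on each array as the log2 level minus the gene's mean over the 6 arrays (colour, ending at 3 in size; rows, genes by role; columns, arrays with their slide row). Fst, Ccn2 and Acvr1b show the strongest colours, and for Acvr1b the K14-SCF Tg array of row 2 is on the WT side.

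Differences between the slide rows were common among the members and among all genes. In 11 of 41 members (26.8%, against 17.6% of all genes) the row 2 array was the highest of both genotypes, among them Tgfb2, Tgfbr1, Acvr1, Bmpr1a, Bmpr2 and Smad2. In 7 members (17.1%, against 17% of all genes) it was the lowest of both genotypes, and these were Inhbb, Tgfbr2, Chrd, Ltbp2, Id1, Id2 and Id3. The difference between the genotypes had the same sign in both rows for 20 of the 41 tested members, a share not counted over all genes. For Smad3, Fst and Ccn2 this had to be so, as their genotypes do not overlap on any array. Acvr1b, Tgfbi and Tgfb3 were not among the 20. The slide row was not tested as a source of these values, as it cannot be told apart from the replicate number.

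Within genotypes, the median SD of the members was 0.488, close to the 0.492 of all tested genes, with Smad4 at 0.0889 and Acvr1b at 2.29 as the extremes. For 12 members another probe was tested. The sign of the fold change was the same at both probes in 10 of these 12 (83.3%), against 2658 of 4855 genes (54.7%) whose probes all had 1 sign, some of which have more than 2 probes. The exceptions were Acvr1 and Smad4, whose brightest probes lay within 0.1 of 0.

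**Figure D4:**
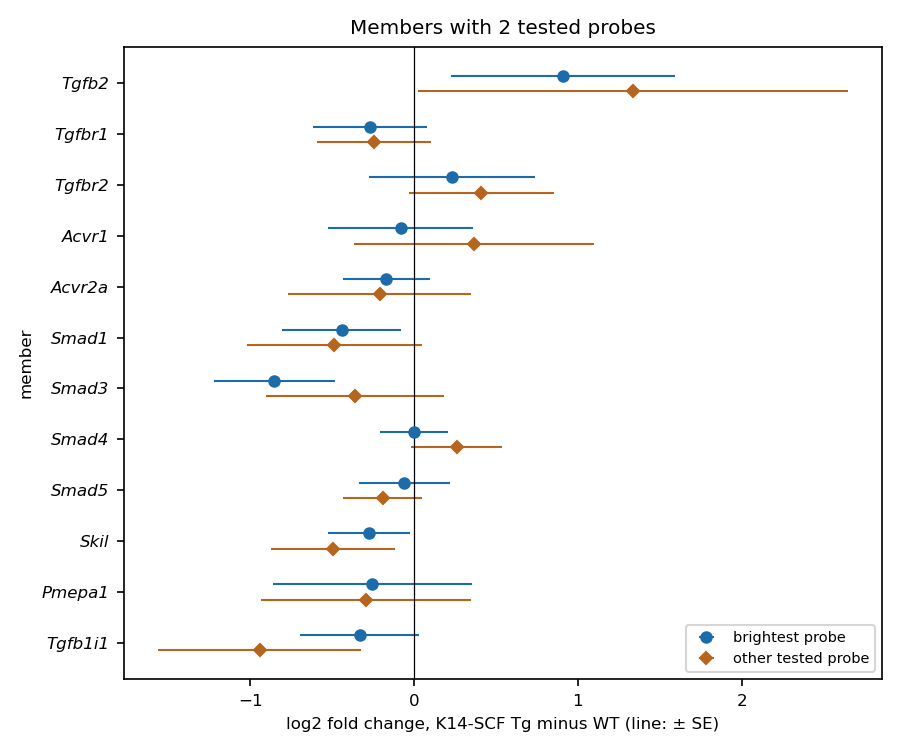
Log2 fold changes (horizontal axis, K14-SCF Tg minus WT, with SE as lines) at the brightest probe (circles) and the other tested probe (diamonds) of the 12 members with 2 tested probes. The probes differ in sign for Acvr1 and Smad4, and for Smad3 the other probe gives -0.36 against -0.85.

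A further 85 genes of the pathway, chosen by function, were read from the same fit. The list was chosen with earlier results of these data known, so its shares beside those of all genes are no test of the pathway. Of the 74 tested, 31 fold changes were positive and 43 negative with a median of -0.06, and 0 passed limma's adjusted threshold. At an unadjusted limma p under 0.05, 3 were higher (4.05%, against 2.85% of all genes) and 6 lower (8.11%, against 2.56%). The genotypes did not overlap for 6 genes upward and 6 downward (8.11% each, against 5.13% and 5.41% of all genes). Cdkn2b, which encodes the cell cycle inhibitor p15 and is induced by TGF-beta in epithelial cells, read -5.14, -6.53 and -5.52 in WT replicates 1 to 3, against -3.32, -3.30 and -2.25 in K14-SCF Tg. Its genotypes did not overlap, but it was well above background on only 1 of 3 WT arrays, and the log2 fold change of 2.77 did not pass (SE 0.49, limma adjusted p = 0.488). Amhr2, the receptor for anti-Mullerian hormone, gave 2.21 (SE 0.80), also without overlap.

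On the lower side, the BMP-responsive Atoh8 gave -1.13 (SE 0.29), and Snai1, a repressor of epithelial genes, -2.12 (SE 0.55) with 2 of 3 K14-SCF Tg arrays well above background. Smad9, the remaining BMP receptor Smad, gave -2.48 (SE 0.66), also with 2 of 3 K14-SCF Tg arrays above background. Vasn, a TGF-beta trap, gave -0.85 (SE 0.26). All of these had genotypes without overlap, and none passed (limma adjusted p between 0.664 and 0.788). The others of the 6 lower at an unadjusted limma p under 0.05 were Ltbp1 (-1.10, SE 0.42), without overlap, and Gdf9 (-3.01, SE 1.17), with overlap. Both are named after their values were seen. Twsg1 (-0.28, SE 0.22) was also lower in K14-SCF Tg without overlap.

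Several members are also expressed by fibroblasts, and markers of that and other cell types were read from the same fit. The summed linear signal of 16 fibroblast markers, relative to each array's 75th percentile, was 74.8, 49.6 and 30.1 in WT replicates 1 to 3 and 23.9, 12.5 and 12.1 in K14-SCF Tg, without overlap. The 3 brightest, Col1a1, Col1a2 and Col3a1, made up between 57.6% and 87.9% of the sum by array, and the other 13 summed to 6.18 to 9.05 in WT and 3.53 to 5.14 in K14-SCF Tg. Of the 16, 12 were well above background on all 6 arrays and the others on some, and 10 log2 fold changes were negative and 6 positive. Among them Thy1 gave -1.69 (SE 0.34), Col1a2 -1.87 (SE 0.52), Col3a1 -2.31 (SE 0.76) and Col6a2 -1.04 (SE 0.36), while Col5a2 gave 1.24 (SE 0.29), Fap 2.19 (SE 0.91), Pdgfra 1.27 (SE 0.99) and Mfap5 1.01 (SE 1.26). The median of the 16 was -1.17, and 0 of 16 passed limma's adjusted threshold. The melanocyte sums overlapped, from 297 to 387 in WT and from 284 to 338 in K14-SCF Tg. Of 13 tested melanocyte markers 5 were positive and 8 negative (median -0.02). Ednrb (-0.65, SE 0.21) was lower in K14-SCF Tg without overlap and did not pass (limma adjusted p = 0.822). Keratinocyte sums lay between 117 and 147 and leukocyte sums between 164 and 215, also with overlap. Most of each sum came from its brightest probe, Trp63 (mean level 6.93 in WT, 7.02 in K14-SCF Tg) and Itgam (7.46 and 7.49). Of the log2 fold changes, 7 of 14 in keratinocyte and 8 of 12 in leukocyte markers were positive. The genotypes did not overlap for Krt17 (2.18, SE 0.72), Tyrobp (2.35, SE 1.02) and Itgb4 (-0.68, SE 0.52). Of 9 endothelial markers 7 were negative (median -0.67), with sums of 3.08 to 6.30 in WT and 2.5 to 3.43 in K14-SCF Tg. Schwann cell sums lay between 56.0 and 77.8 (median log2 fold change 0.18) and those of muscle and pericyte markers between 5.28 and 9.90 (median 0.19), both with overlap. Of the Schwann cell markers 6 were positive and 3 negative. S100b (0.98, SE 0.37) was higher in K14-SCF Tg without overlap and did not pass (limma adjusted p = 0.887). Absence of overlap was shown by 5.13% of all genes upward and 5.41% downward. The share of other cell types in the values of Fst, Tgfbi, Ccn2 and the other members was not tested.

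**Figure D5:**
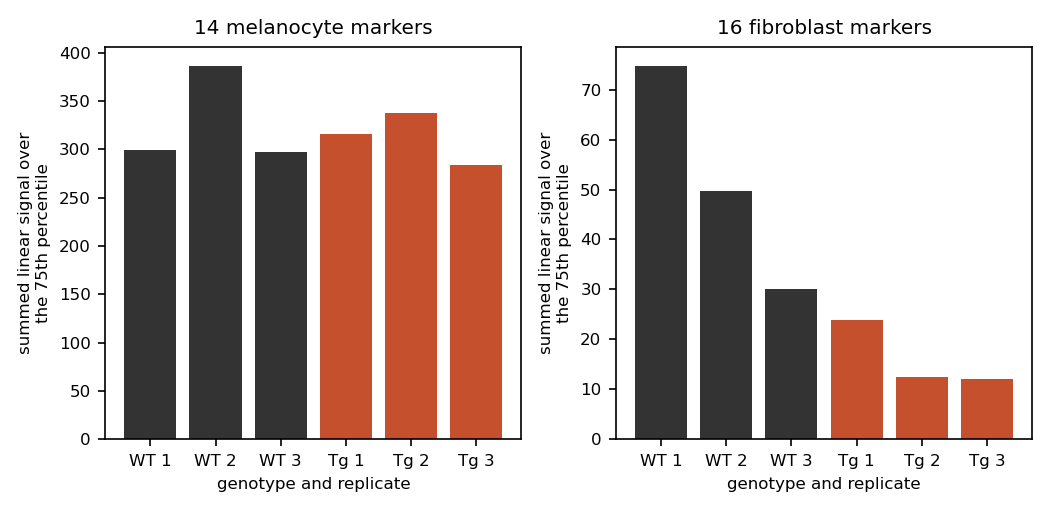
Summed linear signal over the 75th percentile (vertical axes) of 14 melanocyte markers and 16 fibroblast markers on each array (horizontal axes). The fibroblast sums are 30.1 to 74.8 in WT and 12.1 to 23.9 in K14-SCF Tg, and the melanocyte sums overlap.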

How the data were processed

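Each of 6 samples was read on 1 Agilent 1-colour mouse array with a probe design of build mm9, per the file headers. The intensity values are the deposited processed signals of Agilent Feature Extraction 10.7.1.1 (per the file headers and the submitters' processing notes), background-subtracted within the array. Spot and background medians and the other values, flags per spot, were used as deposited. The authors' deposited value table, a linear ratio, equals the processed signal divided by 1 constant per array (1404.64 to 1678.04, within 0.001 for 100% of values). Its column medians are 0.170, 0.177 and 0.169 for WT and 0.184, 0.188 and 0.176 for K14-SCF Tg. Scale and direction are thus known and genes are not centred. The sources used here do not define the constant.

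Control and outlier spots were dropped, spots of 1 probe were averaged, and the array's 75th percentile was subtracted on the log2 scale. A probe counted as well above background on an array where a share of 0.5 or more of its spots carried that flag, and 47709 probes for which this held on 3 or more arrays were tested. The floor for folds, the faintest signal among such probes, lay between -6.58 and -5.75 by array. Of 29786 probes with a RefSeq accession, 28331 matched a RefSeq table (GRCm38.p6), giving 21368 genes. limma 3.58.1 (R 4.3.3) compared the genotypes without covariates by 2-sided moderated tests, adjusted by Benjamini and Hochberg's method across every tested probe, at 0.05. Residual and prior degrees of freedom were 4 and 1.91. The fit was tested on simulated data. Same-numbered arrays of the genotypes had correlations of deviations of 0.0194, 0.0519 and 0.131, so numbers were not treated as pairs. The members and all gene lists were chosen with earlier results of these data known. Every member is named. Those whose mean differed by 1 or more, without overlap, seen in 1 genotype alone or among the 6 smallest p are given array by array, and up to 4 genes per direction of the other lists by smallest p. Not every gene so chosen is reported here. Alternatives covered normalization, background, filters, probe choice, slide, slide row, replicate number, variance model and each array left out.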

Additional observations from a re-analysis of the deposited data

How the results depend on the processing

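In all 19 alternatives 0 members passed the adjusted threshold, and the lowest adjusted p of any member was 0.359 (limma, Fst with the mean of a gene's probes, whose K14-SCF Tg signal is not well above background). The median log2 fold change of the members was negative throughout, from -0.22 to -0.07. The median of all tested genes was negative too, except without WT replicate 2 (0.003). No filter, the slide row covariate, the replicate block and the trended variance cannot move the members' estimates. Slide as a block gives the same estimates as leaving out WT replicate 1. These alternatives are therefore not independent checks of sign. At an unadjusted limma p under 0.05 the counts were 524 genes higher and 471 lower, 1 member each way and 9 other pathway genes. The 1 gene called higher became 0 with normexp and quantile normalization, with detection on all 6 arrays, with the mean of a gene's probes, with slide as a block, slide row as a covariate, the replicate block, a trended and robust variance, without both arrays of slide row 2 (chosen after seeing the data) and without any 1 replicate (0 to 0). With the replicate number as a block, 0 genes were called higher and 0 lower, and WT replicates 1 and 2 did not correlate best with the K14-SCF Tg array of their own number. Fst and Bmpr1b were not tested with detection on all 6 arrays.

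Of the 41 members, 21 kept their sign in every alternative in which they were fitted, and 20 did not. Several alternatives leave an estimate unchanged and so could not turn its sign. The cause was not tested. Signs turned as follows. Quantile normalization gave Bmp2 -0.0109, Bmp6 -0.0217, Chrd -0.0259 and Smad4 0.058. Median centring gave Bmp2 -0.0168, Bmp6 -0.00882, Tgfbr3 -0.0456, Chrd -0.0517 and Smad2 -0.0556. Normexp with quantile normalization gave Bmp2 -0.0376, Bmpr2 0.0163 and Smad4 0.108. The deposited values gave Smad4 0.000749, the mean of probes Acvr1 0.144 and Smad4 0.131, and array weights Bmp6 -0.0751. Slide as a block gave Bmp2 -0.297, Bmp7 0.235, Tgfbr3 -0.0376, Acvr2b 0.162 and Smad5 0.0794. Without slide row 2 the values were Tgfb1 -0.00988, Bmp6 -0.432, Tgfbr3 -0.122, Acvr1 0.0211, Bmpr2 0.142 and Fstl3 -0.214. Leaving out 1 replicate gave ranges of -0.364 to 0.292 for Acvr1, -0.317 to 0.0196 for Acvr2a, -0.712 to 0.182 for Acvr2b, -0.297 to 0.562 for Bmp2, -0.333 to 0.333 for Bmp6, -1.09 to 0.554 for Bmp7, -0.224 to 0.175 for Bmpr1a, -0.275 to 0.207 for Bmpr2, -0.0554 to 0.19 for Chrd, -0.122 to 0.398 for Fstl3, -1.10 to 0.0723 for Id1, -0.836 to 0.0948 for Id2, -0.00546 to 0.253 for Nog, -0.862 to 0.176 for Pmepa1, -0.246 to 0.284 for Smad2, -0.0407 to 0.0594 for Smad4, -0.294 to 0.0794 for Smad5, -0.190 to 0.561 for Tgfbr2 and -0.150 to 0.309 for Tgfbr3.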
